A study of Mus musculus with 93 samples.

Results

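The olfactory cyclic nucleotide gated channel is built from the products of 3 genes, Cnga2, Cnga4 and Cngb1. They were taken by gene name from the deposited expression table, where each has 1 entry, and they are 3 of 31528 genes counted once per symbol. The table comes from single cells of dissociated C57BL/6 mouse olfactory epithelium, isolated by hand for a study of odorant receptor expression during sensory neuron development. The labels give no genotype, age or treatment, name no animal, and place the 85 cells in 5 stages, with 11 cells labelled Progenitor and 9 Precursor, and with 27 labelled Early Immature Neuron, 25 Mature Neuron and 13 the stage between them, Late Immature Neuron. A further 8 libraries are technical repeats and enter only where they are named. Values are FPKM, fragments scaled by transcript length and by the number of mapped fragments. Detection means an FPKM of 1 or more, and a stricter level of 10 or more is used beside it. With no animal named, each stage amounts to 1 sample: stages are compared without a test, and every SD describes cells. Stage assignment is not described in the sources used here, and it may rest on the same transcriptomes. Differences between stages, for the subunits and for all other genes, are therefore descriptions. Whether they follow from that assignment was not tested.

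In an olfactory sensory neuron, an odorant receptor acts through a G protein on an adenylyl cyclase. The cyclic AMP that is made opens this channel in the cilia, and calcium enters. Cnga2 is the principal subunit and can form a channel alone. Cnga4 and Cngb1 are modulatory subunits, which change how the channel responds to cyclic AMP and how fast calcium with calmodulin closes it, and Cngb1 also helps to bring the channel to the cilia. The calcium then opens the chloride channel Ano2.

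The 3 genes lie on different chromosomes of the mm10 genome. Cnga2 (ENSMUSG00000005864.7) spans chrX:71991849-72010218 on the plus strand, and its longest transcript has 7 exons and 3064 bases. Cnga4 (ENSMUSG00000030897.4) spans chr7:105404568-105408738 on the plus strand, with 6 exons and 2480 bases. Cngb1 (ENSMUSG00000031789.10) spans chr8:95239045-95306585 on the minus strand. The annotation gives Cngb1 a transcript of 33 exons and 6189 bases, a short one of 13 exons and 1512 bases from the same start, and 2 transcripts of 21 exons (3243 and 3336 bases) that start inside the gene at positions 95281590 and 95281610. The table gives 1 value for the gene, so these forms cannot be told apart here.

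The sequences before the starts of the 3 genes are shown because the 3 RNAs are all at or near 0 in the earliest cells and found together late in the lineage. The factors of the Ebf family, also known as Olf-1, bind TCCCNNGGGA and are known regulators of olfactory genes. The windows are the 250 bases before the start in RefSeq (GRCm38.p6), which lie directly before the starts in the authors' annotation, at chrX:71991599-71991848 (plus strand), chr7:105404318-105404567 (plus) and chr8:95306586-95306835 (minus, before the start shared by the longest and the shortest Cngb1 transcript). Capitals mark matches to the core CCCNNGGG on either strand.
Cnga2: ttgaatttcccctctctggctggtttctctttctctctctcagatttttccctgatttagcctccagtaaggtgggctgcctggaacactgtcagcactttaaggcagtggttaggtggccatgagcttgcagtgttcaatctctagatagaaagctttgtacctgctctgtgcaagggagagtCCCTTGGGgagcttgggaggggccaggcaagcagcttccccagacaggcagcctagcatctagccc
Cnga4: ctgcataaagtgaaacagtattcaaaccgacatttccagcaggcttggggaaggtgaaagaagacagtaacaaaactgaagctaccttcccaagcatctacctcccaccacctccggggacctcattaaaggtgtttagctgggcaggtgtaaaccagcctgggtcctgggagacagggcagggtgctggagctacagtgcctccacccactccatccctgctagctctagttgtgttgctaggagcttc
Cngb1: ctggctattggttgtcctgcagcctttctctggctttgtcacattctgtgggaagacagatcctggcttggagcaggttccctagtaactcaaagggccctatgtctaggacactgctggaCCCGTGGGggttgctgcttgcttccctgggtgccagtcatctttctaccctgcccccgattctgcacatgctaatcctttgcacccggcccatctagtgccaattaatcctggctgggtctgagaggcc

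The core is found 1 time in the Cnga2 window, with its first base 66 bases before the start, and 1 time in the Cngb1 window, 129 bases before the start. In Cnga4 the 250 bases hold no match, and 1 match (CCCCAGGG) lies in the 50 bases after the start. Over all 32851 RefSeq promoter windows of 250 bases before and 50 after the start, 13.7% hold the core. The full TCCCNNGGGA, which contains the core, is in 0.904% of windows and the homeodomain site TAATTA in 5.29%, and neither is in the windows of the 3 genes. These are matches of letters only. No window before the Cngb1 transcripts that start inside the gene was searched, and which start these cells used is not known here.

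Depth was read from the spacing of low values: 1 FPKM over 1 kb equalled 0.593 to 10.4 fragments, with stage medians of 6.43, 7.14, 5.97, 5.36 and 4.41 from Progenitor to Mature Neuron. The FPKM that 3 fragments give was above 1 in 3 cells for Cnga2, 5 for Cnga4 and 3 for Cngb1, among them the Early Immature Neuron cell D215 and the Mature Neuron cell D213. Gap43, a growth cone protein of immature neurons, reached an FPKM of 10 in 23 of 27 Early Immature Neuron cells and 0 of 25 Mature Neuron cells. Omp, the marker of mature neurons, reached it in all 25 Mature Neuron, all 13 Late Immature Neuron and 16 Early Immature Neuron cells. Because the stages may rest on such markers, these counts are no independent check of the stages. Gap43 and Omp go against the stage in some libraries, most plainly in 3. The Precursor cell D242 and the Early Immature Neuron cells D215 and D244 had Gap43 at 0 and Omp at 378.5, 4143 and 648. Omp also reached an FPKM of 10 in 1 Progenitor cell and 3 Precursor cells, D242 among the latter. The Early Immature Neuron cell D357 had Gap43 at 2.46 and Omp at 115. RNA of another cell type, taken as at least 2 markers of a list at an FPKM of 100 or more, was found in 18 cells: immune and blood markers in 8 Progenitor cells and 1 Precursor cell, and markers of sustentacular cells, the supporting cells of the epithelium, in 7 Mature Neuron, 1 Late Immature Neuron and 1 Early Immature Neuron cell.

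All 3 subunit RNAs were near 0 in Progenitor and Precursor cells, present in some Early Immature Neuron cells, and high in nearly all Late Immature and Mature Neuron cells. Cnga2, the principal subunit, had a median FPKM of 0 in Progenitor cells (0 to 0.724, n = 11) and 0.0375 in Precursor cells (0 to 2.84, n = 9). Its median was 58.6 in Early Immature Neuron cells (0 to 1059, n = 27), 483 in Late Immature Neuron cells (57.2 to 1703, n = 13) and 665 in Mature Neuron cells (0.828 to 2811, n = 25). The late immature cells all lay above the Precursor cells, while the early immature cells overlapped every other stage.

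Cnga2 was detected in none of 11 Progenitor cells, which allows a share of up to 27.3%. Without the 8 of these cells that held immune and blood RNA, 3 cells remain, with Cnga2 at 0.0489 to 0.724. Allowing 3 cells of the total then sets no limit, and the exact interval reaches 70.8%. Cnga2 was detected in 3 of 9 Precursor cells (33.3%, exact Clopper-Pearson 95% interval 7.49 to 70.1). It was detected in 21 of 27 Early Immature Neuron cells (77.8%, interval 57.7 to 91.4), all 13 Late Immature Neuron cells and 24 of 25 Mature Neuron cells (96.0%, interval 79.6 to 99.9). Such intervals and limits cover counting error only. The Early Immature Neuron cells fell into separate levels: in 15 cells Cnga2 was at 42.4 or more, with a median of 198, and in the other 12 cells at 4.602 or less.

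Cnga4, a modulatory subunit, had a median FPKM of 0.0666 in Progenitor cells (0 to 0.168), 0 in Precursor cells (0 to 3.39) and 0.543 in Early Immature Neuron cells (0 to 412.1). The median was 242.1 in Late Immature Neuron cells (47.3 to 1084) and 385 in Mature Neuron cells (2.96 to 4076). Most early immature cells thus held little Cnga4, and all late immature cells held it at a high level. It was detected in 2 of 9 Precursor, 11 of 27 Early Immature Neuron (40.7%, interval 22.4 to 61.2), all 13 late immature and all 25 mature cells. In 8 Early Immature Neuron cells it was at 18.7 or more, and in 11 it was listed at 0.

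Cngb1, the other modulatory subunit, had a median FPKM of 0 in Progenitor cells (0 to 0.148), 0 in Precursor cells (0 to 0.491) and 0.355 in Early Immature Neuron cells (0 to 128). The median was 57.5 in Late Immature Neuron cells (2.05 to 315) and 100.4 in Mature Neuron cells (1.18 to 663). No Precursor cell held it at an FPKM of 1, which allows a share of up to 33.3%. It was detected in 11 of 27 Early Immature Neuron cells (40.7%, interval 22.4 to 61.2), and in each of these 11 it was at 10.4 or more. The other 16 early immature cells had at most 0.908, and all 13 Late Immature and all 25 Mature Neuron cells held it at an FPKM of 1 or more.

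**Figure D1:**
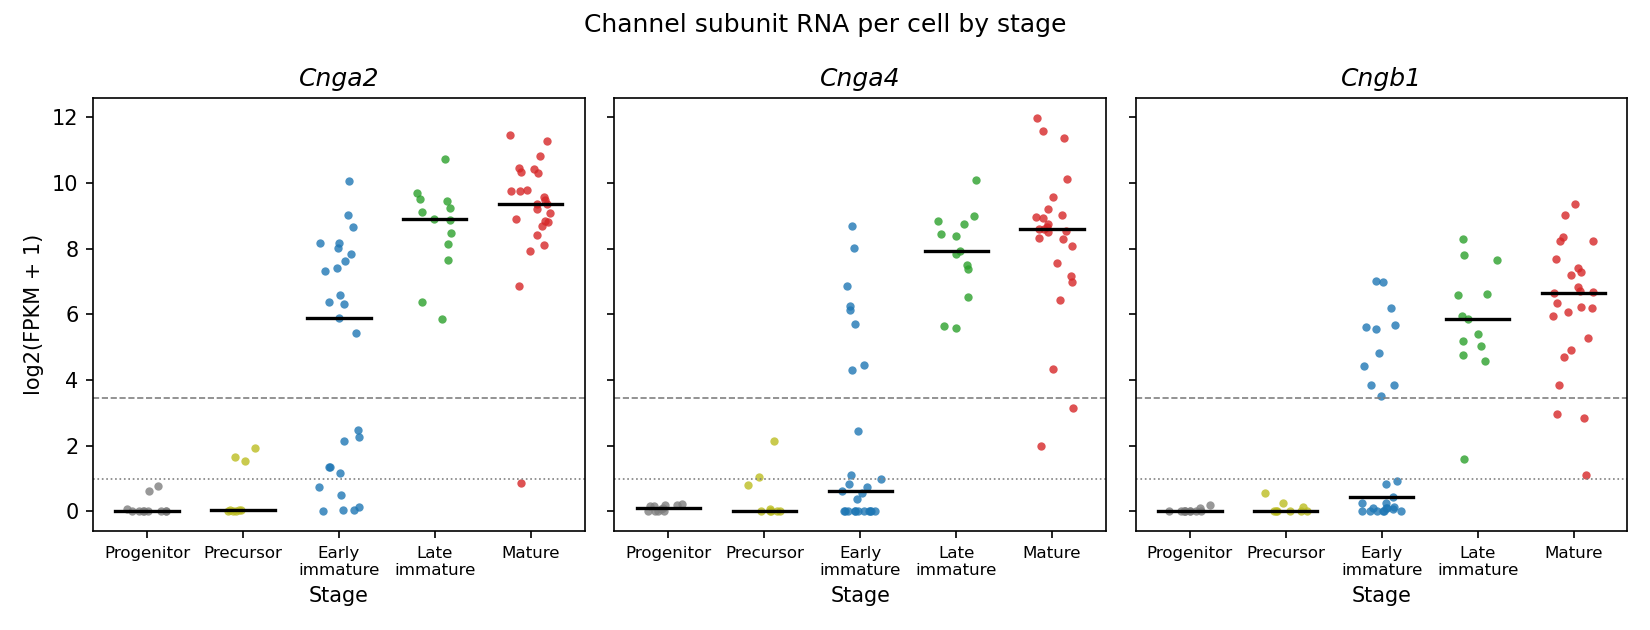
Each point is the first library of 1 cell, with log2(FPKM + 1) on the vertical axis and the 5 stages on the horizontal axis, for each subunit gene. Bars are stage medians, and the dotted and dashed lines mark an FPKM of 1 and 10. The early immature cells separate into a low and a high set for each gene, with 15, 8 and 11 cells at an FPKM of 10 or more for Cnga2, Cnga4 and Cngb1.

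The low Precursor values all came from 1 range of cell names. The numbers in the names fall into the ranges D29 to D97, D168 to D274 and D316 to D434, of which the first holds only Late Immature (1) and Mature Neuron (5) cells and the others hold every stage. Cnga2 stood at 1.92 in D178, 2.84 in D195 and 2.19 in D242, which are 0.0774%, 0.115% and 0.0880% of the highest Cnga2 value in D168 to D274. None of the 5 Precursor cells of D316 to D434 held Cnga2 at an FPKM of 1. Over all stages, 20 values of the 3 genes lay between an FPKM of 1 and 10, and 17 of them were under 1% of the highest value of the gene in the same range. The part that RNA from other cells has in such values was not tested.

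For comparison between stages, means of log2(FPKM + 1) were subtracted, second stage minus first, over the genes detected in at least 50% of cells of either stage, and a gene was called higher or lower at a difference of at least 1. On this scale the change of low genes is understated. From Precursor to Early Immature Neuron the mean of Cnga2 went from 0.59 ± 0.85 (SD, n = 9) to 4.64 ± 3.47 (n = 27), a difference of 4.05. In this comparison 22% of 4005 genes were called higher and 28% lower. Cnga4 and Cngb1 were detected in under 50% of the cells of both stages and so were not among those genes. Their differences were 1.70 and 2.15.

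From Early to Late Immature Neuron all 3 subunits were called higher, where 32.5% of 4144 genes were called higher and 16% lower. Cnga4 had the largest difference of the 3, 5.69, from 2.16 ± 2.91 (SD, n = 27) to 7.84 ± 1.32 (n = 13). Cnga2 differed by 3.99, to 8.62 ± 1.35, and Cngb1 by 3.55, from 2.25 ± 2.64 to 5.80 ± 1.74. The median difference over all genes compared was 0.41. Without D215, D244 and D242 the differences were 5.78 for Cnga4, 3.89 for Cnga2 and 3.79 for Cngb1.

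From Late Immature to Mature Neuron none of the 3 was called. The differences were 0.50 for Cnga2, 0.35 for Cnga4 and 0.45 for Cngb1, each below the SD over cells of either stage. Leaving out 1 cell moved them from 0.27 (without D230) to 0.84 (without D213) for Cnga2, from 0.17 (D344) to 0.61 (D254) for Cnga4 and from 0.098 (D77) to 0.66 (D213) for Cngb1. Without the cells that held RNA of another type they were 0.19, 0.28 and 0.46. Over 3835 genes, 4.54% were called higher and 32.7% lower, with a median difference of -0.58. When FPKM were rescaled to the same sum over genes that are not mitochondrial, the differences turned to -0.20, -0.33 and -0.27, and the median over all genes moved to -1.03. Of the genes called, 12.2% were higher as deposited, 1.77% after rescaling and 47.7% in the cells of D316 to D434 alone. The rescaled Mature Neuron medians were 439.7 for Cnga2, 321 for Cnga4 and 46.2 for Cngb1. The summed FPKM of these genes had a median of 427994 in Late Immature and 699722 in Mature Neuron cells. Within D316 to D434 (6 and 4 cells) the differences as deposited were -0.06, -0.60 and -0.86. Within D168 to D274 (6 and 16 cells) the mean went from 8.29 to 8.90 for Cnga2, from 7.85 to 7.78 for Cnga4 and from 6.03 to 5.93 for Cngb1. The 5 Mature Neuron cells of D29 to D97 had the highest means, 10.3, 10.6 and 7.95. Rescaling thus turned the sign of the difference for each of the 3 genes. As deposited, it was negative for Cnga4 and Cngb1 in both ranges with several cells of each stage. For Cnga2 it was negative in D316 to D434 and positive in D168 to D274. The remaining range, D29 to D97, holds only 1 Late Immature Neuron cell.

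Over the whole span, from Progenitor to Mature Neuron, Cnga2 differed by 8.99, Cnga4 by 8.09 and Cngb1 by 6.22. There 25.2% of 4467 genes were called higher and 46.3% lower. Of the genes called, 35.3% were higher as deposited, 23.6% after rescaling and 51.6% in D316 to D434 alone. From Progenitor to Precursor the differences were 0.46, 0.35 and 0.08, and none of the 3 genes passed the filter. They were as low as 0.29 without D195, and 0.14 and 0.02 without D242, and without the cells that held RNA of another type they were 0.18, 0.44 and 0.02. In D316 to D434 alone, with 3 Progenitor and 5 Precursor cells, they were -0.46, -0.06 and -0.10. The 3 Progenitor cells of that range are also the only 3 without RNA of another type. For Progenitor cells the range and that RNA therefore cannot be told apart. Over all cells of these stages, 20.1% of 4320 genes were called higher and 21.6% lower.

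Within single cells the subunits were found in a staggered way at the early immature stage and together later. At an FPKM of 10, 11 of 27 Early Immature Neuron cells held none of the 3 genes, 4 held Cnga2 alone, 3 held Cnga2 with Cngb1, 1 held Cnga2 with Cnga4, 1 held Cngb1 alone, and 7 held all 3 (25.9%, exact Clopper-Pearson 95% interval 11.1 to 46.3). All 3 were held by 12 of 13 Late Immature Neuron cells (92.3%, interval 63.97 to 99.8) and 20 of 25 Mature Neuron cells (80.0%, interval 59.3 to 93.2). At this level no cell of any stage held Cnga4 and Cngb1 without Cnga2. At an FPKM of 1, all 3 were held by 7 of 27 early immature, all 13 late immature and 24 of 25 mature cells. Without D215 and D244, 6 of 25 Early Immature Neuron cells (24%) held all 3.

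**Figure D2:**
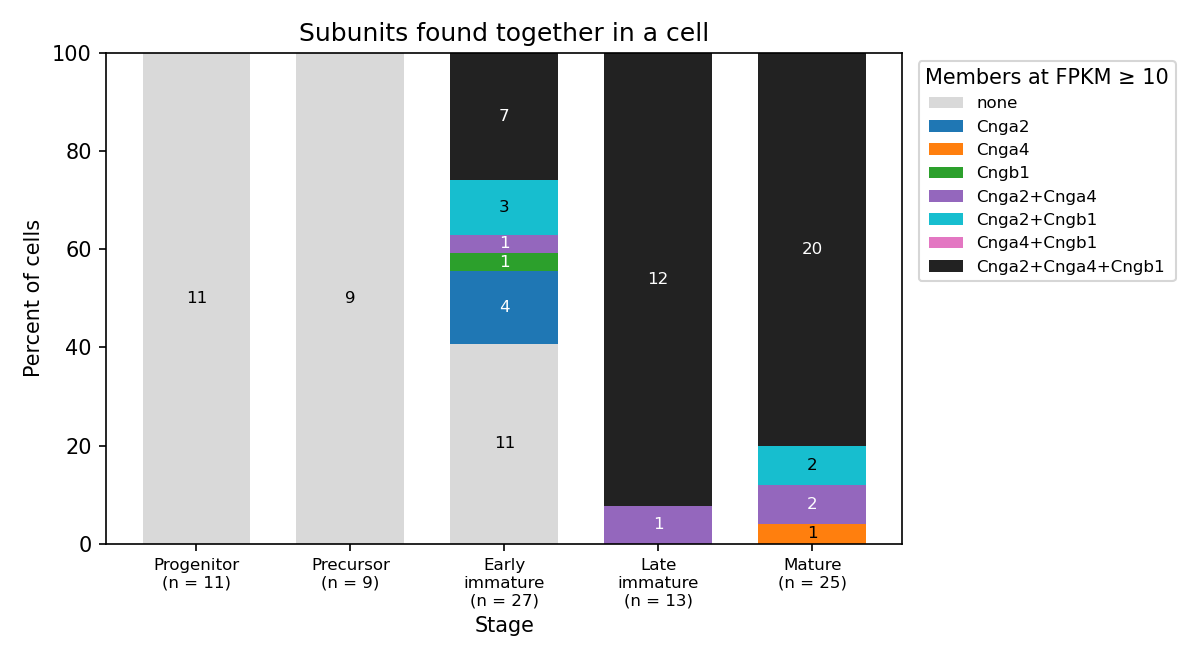
Stacked bars give the percent of cells of each stage by which of the 3 genes reached an FPKM of 10, with the number of cells in each segment. The Progenitor and Precursor bars are wholly cells with none, the early immature bar is mixed, and 12 of 13 late immature and 20 of 25 mature cells hold all 3.

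The 4 Early Immature Neuron cells with Cnga2 alone had FPKM of 94.6 (D331), 79.0 (D336), 227 (D347) and 58.6 (D434). Cnga4 was 0, 0.289, 0.670 and 0 in these cells, and Cngb1 was 0, 0.109, 0.197 and 0. In all 4 cells the 3-fragment level of every subunit was at most 0.588, although a transcript lost before amplification is not covered by that level. Gap43 lay between 367 and 1941 there. Omp was 0 in D331 and D434, 40.8 in D336 and 970 in D347.

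The 3 cells with Cnga2 and Cngb1 and without Cnga4 were D317, D378 and D394. Cnga2 was 160, 169.1 and 290 in them, Cngb1 was 48.1, 13.6 and 13.5, and Cnga4 was listed at 0 in each. The FPKM of 3 fragments of Cnga4 was 0.193, 0.240 and 0.380. D431 showed the other pairing, with Cnga2 at 290, Cnga4 at 18.7 and Cngb1 at 0.798. In the 7 cells with all 3, Cnga2 ranged from 42.4 in D362 to 1059 in D168.

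Counted over all 85 cells at an FPKM of 10, Cnga2 was found without Cnga4 in 9 cells and Cnga4 without Cnga2 in 1, the Mature Neuron cell D213. Cnga2 was found without Cngb1 in 8 cells and Cngb1 without Cnga2 in 1, the Early Immature Neuron cell D215. Both exceptions are libraries of low depth, but an FPKM of 10 lies above every 3-fragment level in them. The Mature Neuron cell D223, of still lower depth, held all 3 genes at that FPKM. The part of depth in the exceptions was not tested. In D215 Cngb1 was 128, Cnga2 0.432 and Cnga4 0.543, against 3-fragment levels of 1.34 for Cnga2 and 1.68 for Cnga4. In D213 Cnga4 was 125, Cnga2 0.828 and Cngb1 1.18, against 1.27 for Cnga2. Between the modulatory subunits there was no such one-sided count: Cnga4 without Cngb1 in 5 cells and Cngb1 without Cnga4 in 6.

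At an FPKM of 1 the same counts were 11 cells with Cnga2 and not Cnga4 against 1, and 14 cells with Cnga2 and not Cngb1 against 2. Of the 14, 3 Precursor and 6 Early Immature Neuron cells held Cnga2 below 10, at under 1% of the highest value in their range of cell names. Cnga2 was also the more abundant RNA, at a median of 8.71 times Cngb1 in Early Immature Neuron cells with both. The part of that level in these one-sided counts was not tested. Leaving out the 5 cells in which an FPKM of 1 is under 3 fragments of a subunit gave counts of 11 against 0 and 14 against 0. Those cells include D213 and D215, the only exceptions, so the counts of 0 were fixed by leaving them out. This setting was chosen after the data were seen. By stage, Cnga2 reached an FPKM of 10 in at least 50% of cells at the Early Immature Neuron stage (55.6%), and Cnga4 (29.6%) and Cngb1 (40.7%) did so at the Late Immature Neuron stage. The intervals of these early shares overlap: 35.3 to 74.5 for Cnga2, 13.7 to 50.2 for Cnga4 and 22.4 to 61.2 for Cngb1. The shares come from the same 27 cells, so this overlap does not measure whether they differ. Cell by cell, 7 of these cells held Cnga2 and not Cnga4, against 0 the other way. For Cngb1 the counts were 5 against 1.

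At an FPKM of 10, the cells that held Cnga2 with only 1 or neither of the modulatory subunits at the early immature stage all belonged to the range D316 to D434, 8 of 19 cells there. In D168 to D274, 4 of the 8 Early Immature Neuron cells held all 3 genes, 3 held none and D215 held Cngb1 alone. At an FPKM of 1 those 3 cells also held Cnga2, alone in D187 and D200 and with Cnga4 in D197. Within D316 to D434 alone, at an FPKM of 1, the counts were 8 cells with Cnga2 and not Cnga4 against 0, and 8 with Cnga2 and not Cngb1 against 0. The labels do not say what the numbers stand for.

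**Figure D3:**
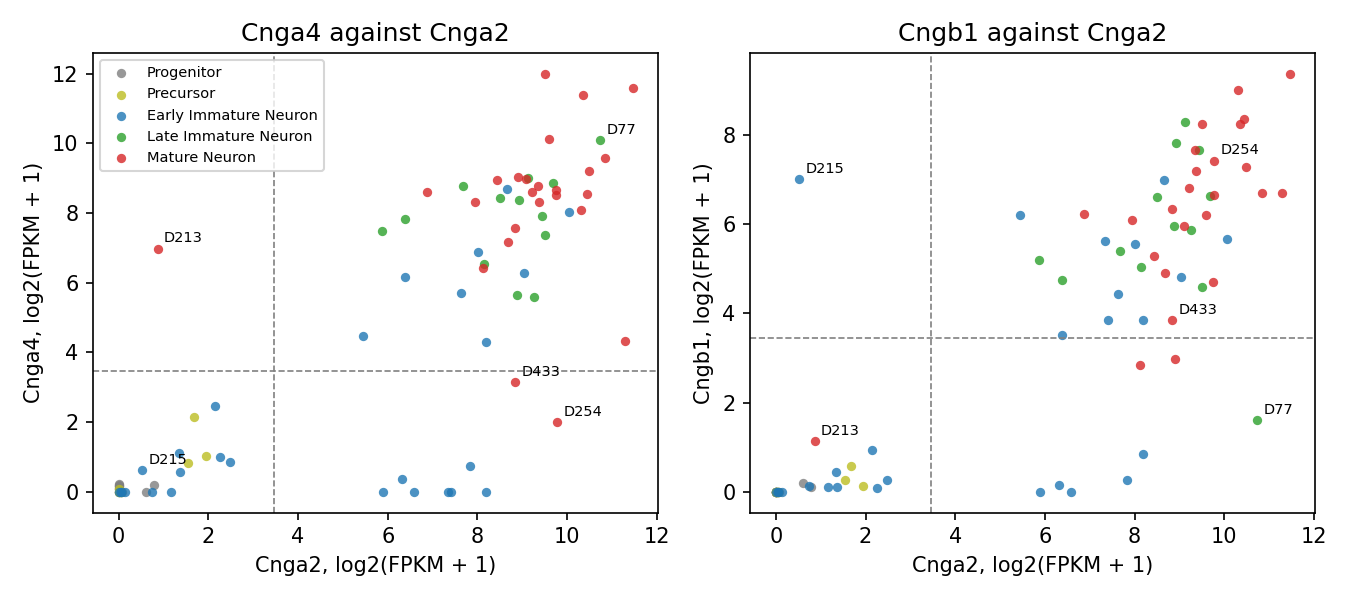
Each point is 1 cell, with log2(FPKM + 1) of Cnga2 on the horizontal axis and of Cnga4 (left) or Cngb1 (right) on the vertical axis, coloured by stage, and dashed lines at an FPKM of 10. The lower right area, Cnga2 without the other subunit, holds 9 and 8 cells, and the upper left area holds 1 in each panel, D213 and D215.

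A low level of a subunit, still at an FPKM of 1 or more, was seen in some Late Immature and Mature Neuron cells, and for different subunits. In the Late Immature Neuron cell D77, Cngb1 was 2.05 while Cnga2 was 1703 and Cnga4 1084. In the Mature Neuron cells D245 and D262, Cngb1 was 6.84 and 6.19, with Cnga2 at 478 and 279. Cnga4 was low in D254, at 2.96 beside 879 for Cnga2 and 171 for Cngb1, and in D433, at 7.90 beside 458 and 13.5. D265 was also marked by little Cnga4, 19.2, beside 2484 for Cnga2. Of these cells, D245 and D254 carried sustentacular RNA, and the other 4 did not meet that rule. The 6 sustentacular markers summed to a median FPKM of 318.2 in Mature Neuron cells (0.314 to 2446) and 22.2 in Late Immature Neuron cells (0.303 to 4414), and their part in these values was not tested. Without all cells that met the rule, 17 of 18 Mature Neuron cells (94.4%) held all 3 genes at an FPKM of 1.

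The authors' receptor table gives 64 of the cells a Pseudotime score. The sources used here do not say how it was made, and it may come from the same transcriptomes, so its relation to these genes is a description. Below a score of 20, Cnga2 reached an FPKM of 10 in 0 of 6 cells. It did so in 2 of 5 cells between 20 and 25, in 4 of 7 between 25 and 30, and in all 9 between 30 and 35. Cngb1 did so in 1, 1, 1 and 9 cells of the same intervals, and Cnga4 in 0, 1, 2 and 6.

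Among Early Immature Neuron cells alone, those at a score of 30 or more held Cnga2 in 8 of 8, Cngb1 in 8 of 8 and Cnga4 in 5 of 8. Those below 30 held them in 6, 3 and 3 of 17. The 10 scored early immature cells with none of the genes had a median score of 23.1, the 3 scored cells with Cnga2 alone 26.4, the 3 cells with Cnga2 and Cngb1 31.8, and the 7 with all 3 had 33.02. D431, with Cnga2 and Cnga4, had 29.5. The scores of the cells with none and with all 3 overlapped (10.1 to 27.1 and 20.3 to 35.4), through D244, whose markers go against its stage. The cells with Cnga2 and Cngb1 (30.6 to 32.5) lay inside the range of those with all 3. Of the latter, D244, D362 (28.6) and D401 (30.5) scored below each of them, so these medians give no clear order. The single cell with Cngb1 at a score under 20 was D215.

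**Figure D4:**
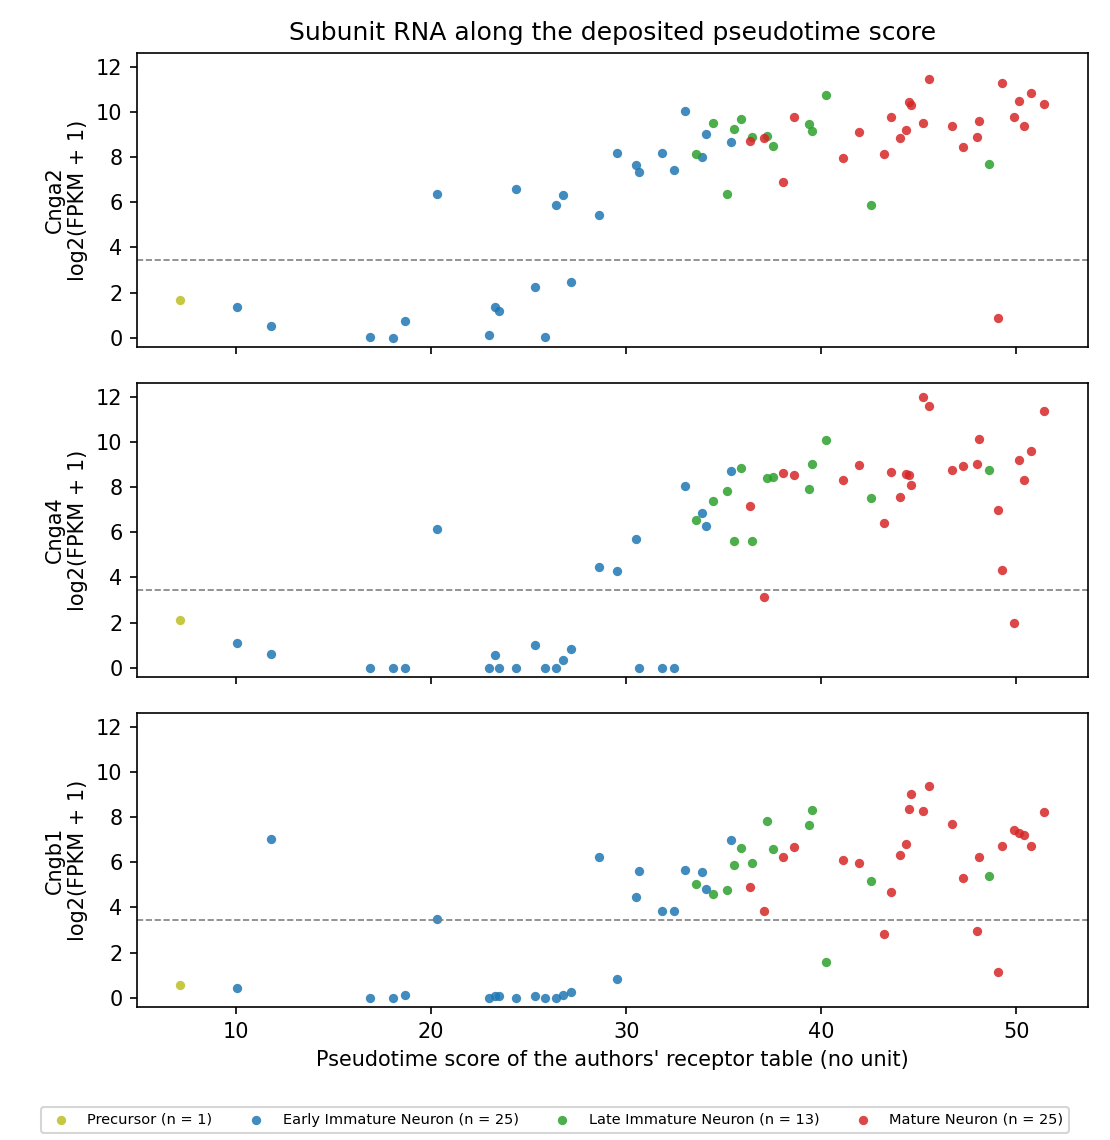
Points are the 64 scored cells, with the authors' Pseudotime score, which has no unit, on the horizontal axis and log2(FPKM + 1) of each subunit on the vertical axis, coloured by stage. From a score of 30 on, Cnga2 is above the dashed line (FPKM of 10) in all cells but D213, while Cnga4 is at 0 in 3 early immature cells between 30 and 35.

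FPKM is a value per length, so levels can be set side by side between the genes, with the limit that priming from the poly(A) tail favours 3′ ends. Cnga2 was the most abundant of the 3 RNAs in 10 of 13 Late Immature and 16 of 25 Mature Neuron cells, and Cnga4 in the other 3 and 9. Cngb1 led in none. Of the summed FPKM of the 3 genes, Cnga2 held a median of 59.5% in Late Immature Neuron cells (20.99 to 85.4) and 59.0% in Mature Neuron cells (0.652 to 95.5). Cngb1 held 8.03% (0.0734 to 22.6) and 7.09% (0.680 to 25.1).

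In cells with both genes detected, the ratio of Cnga2 to Cnga4 had a median of 2.22 in 11 Early Immature, 1.57 in 13 Late Immature and 2.11 in 24 Mature Neuron cells. In mature cells it ran from 0.177 in D97 to 297 in D254. The ratio of Cnga2 to Cngb1 had medians of 8.71, 4.91 and 7.16, and was above 1 in all 13 late immature and all 24 mature cells. The ratio of Cnga4 to Cngb1 had medians of 2.78, 3.59 and 4.77. The spread of each ratio over the cells of a stage was larger than the distance between stage medians.

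The technical repeats show how far a level can move for 1 cell. Over 24 pairs of first and repeat values, the call at an FPKM of 10 differed in 0, and the call at 1 differed in 1, Cnga4 in D200 (0.797 and 1.65). In the 18 pairs with both values at 10 or more, the ratio of repeat to first had a median of 1.75 and ran from 0.231 to 10.4, and 12 of 18 pairs lay within 2-fold. Cngb1 gave both ends: 201.5 and 46.7 in D233, and 35.6 and 369 in D230. All 8 repeated cells belong to D168 to D274, and none of them held only some of the subunits at an FPKM of 10.

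Odorant transduction was followed further with a list of 29 genes, all in the table. Besides genes of the pathway it holds Omp, the receptor transport genes Rtp1, Rtp2 and Reep1, and the transcription factors Ebf1, Ebf2 and Lhx2. From Precursor to Early Immature Neuron, 21 were compared, of which 15 were called higher and 2 lower, beside 22% and 28% of all genes compared, with a median difference of 2.63 beside -0.26 over all genes. From Early to Late Immature Neuron, 23 were compared, of which 16 were higher and 1 lower, beside 32.5% and 16% of all genes, with a median of 2.51 beside 0.41. From Late Immature to Mature Neuron, 2 were higher and 2 lower of 23, beside 4.54% and 32.7% of all genes, with a median of 0.32 beside -0.58.

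At an FPKM of 10, Gng13 was found in 24, Ric8b in 20, Gnal in 17 and Cnga2 in 15 of the 27 Early Immature Neuron cells. Gnas, which encodes the widely used alpha subunit that activates adenylyl cyclase, was at that level in 1 of them, after 3 of 11 Progenitor and 4 of 9 Precursor cells. Gnal, the olfactory G protein alpha subunit, was at an FPKM of 10 in 4 of 9 Precursor and 17 of 27 Early Immature Neuron cells, and its median was 59.8 in early immature, 389 in late immature and 604 in mature cells. Over all cells, Gnal was found without Cnga2 in 10 cells and Cnga2 without Gnal in 2, D331 and D336. Gng13, the gamma subunit paired with Gnal, had medians of 108, 1024 and 1296. Ric8b, a chaperone and exchange factor of Gnal, had medians of 76.2, 238 and 515.

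Enzymes that make and remove cyclic AMP differed from each other. Adcy3, the adenylyl cyclase of this pathway, was at an FPKM of 10 in 7 of 27 Early Immature Neuron and 13 of 13 Late Immature Neuron cells, with medians of 1.51 and 60.6. In 12 early immature cells Cnga2 was at 10 without Adcy3, and in 4 the reverse was seen. None of the 8 Early Immature Neuron cells with Cnga4 held Adcy3 at that level. Pde1c, a phosphodiesterase of the cilia, had medians of 21.8, 167 and 132, and Pde4a, a phosphodiesterase found outside the cilia, 3.42, 102 and 238, at the early immature, late immature and mature stages.

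Of the genes downstream of calcium entry, Ano2 was at an FPKM of 10 in 10 Early Immature, 13 Late Immature and 20 Mature Neuron cells, with medians of 2.10, 180 and 96.0. Slc24a4, the sodium and calcium exchanger that clears calcium from cilia, was sparse, at 10 in 2, 5 and 9 cells of these stages. Slc12a2, the chloride loader, was at 10 in 23, 10 and 20 cells, with medians of 29.8, 30.9 and 62.5. Stoml3, a stomatin family protein of olfactory cilia, had medians of 35.4, 4272 and 4712 in the 3 neuron stages, and Omp 49.4, 4584 and 6257.

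**Figure D5:**
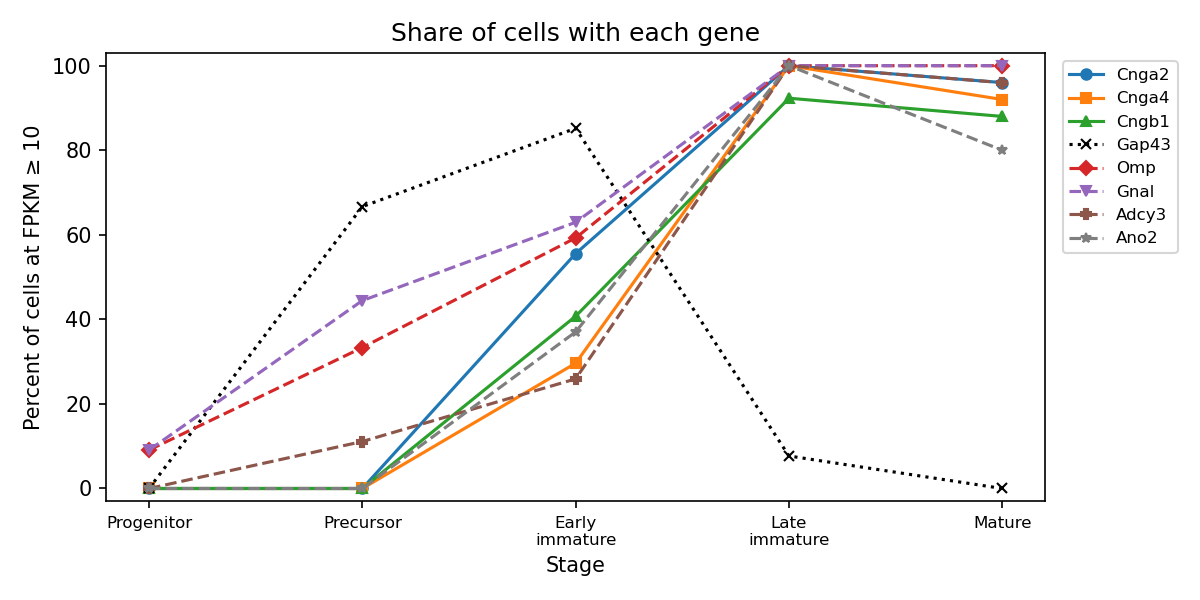
Lines give the percent of cells at an FPKM of at least 10 on the vertical axis for the 3 subunits (solid) and for Gap43, Omp, Gnal, Adcy3 and Ano2 over the 5 stages. At the early immature stage Cnga2 (55.6%) lies near Omp (59.3%) and Gnal (63.0%), and Cngb1 (40.7%), Ano2 (37.0%), Cnga4 (29.6%) and Adcy3 (25.9%) lie lower.

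Related channel genes were scarce. Cnga1 and Cngb3, subunits known from photoreceptors, were listed at 0 in all 85 cells, and Cnga3, known from cones and from guanylyl cyclase D neurons, reached at most 0.381. Hcn2, Hcn3 and Hcn4 encode channels opened by hyperpolarization and tuned by cyclic nucleotides. Hcn2 was detected in 11 cells, 8 of them Mature Neuron cells (highest 69.3, in D259), Hcn3 in 5 and Hcn4 in 0. Thus the 3 olfactory subunits were the only members of the CNG family detected at an FPKM of 1 in these cells.

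The genes most like each subunit over the 85 cells were ranked by Spearman correlation of FPKM among 8365 genes detected in at least 10 cells. For Cnga2 they were Gnal (0.91), Mppe1 (0.90), BC052486 (0.88), Stoml3 and Stom (0.87 each), Umodl1 (0.86), Dcdc2a and Cngb1 (0.85 each). For Cnga4 they were Stoml3 (0.89), Omp (0.88), Umodl1, Tusc5, Stom, Nrn1l, Fam13a and Mppe1 (0.85 to 0.83). For Cngb1 they were Omp (0.89), Stoml3 (0.88), Umodl1 and Gnal (0.87 each), then Plekhb1, Stom, Fam179a and Cnga2 (0.86 to 0.85). Cells of all 5 stages enter, and the values of a cell share its library, depth and scaling, so these figures describe the likeness of patterns and carry no p.

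Among the 25 Mature Neuron cells alone, Cnga2 was followed most closely by Cngb1 (0.71) and Gnal (0.69), then Ccz1, Fth1 and Pde4a (0.68 to 0.67), among 3060 genes. Cngb1 was followed by Ormdl1 (0.72), Cnga2 (0.71), Gnal (0.70), Msi1 and Tollip (0.66 each). Cnga4 stood apart from the other subunits, with 0.33 to Cnga2 (rank 309) and 0.32 to Cngb1 (rank 333), and was followed by Ubl3 (0.77), Gnb1 (0.74), Ywhaq (0.70), Ddx5 (0.68) and Pcnp (0.63). These cells share a scale: the summed FPKM of genes that are not mitochondrial correlated with Cnga2 at 0.57, with Cngb1 at 0.68 and with Cnga4 at 0.24. After rescaling to that sum, Cnga2 and Cngb1 correlated at 0.49, Cnga4 and Cngb1 at 0.38 and Cnga2 and Cnga4 at 0.18.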

How the data were processed

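Poly(A) RNA of single cells was turned into cDNA with an oligo(dT) primer, amplified by PCR and sequenced, per the labels' protocols. The submitters' processing notes name TopHat2 2.0.14, Cufflinks 2.2.1, cutadapt 1.2.1 with Trim Galore, CASAVA 1.8.2 and the build mm10. The settings of these tools are not stated in the labels. The authors deposited FPKM per gene for 93 libraries. They also deposited a receptor table with a Pseudotime score (134 receptor and cell pairs, 64 cells), and an annotation with gene positions.

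The 85 first libraries were grouped by the labelled stage. Stages were compared by values alone, without a p-value, and an SD is over cells, which may share an animal. Genes with more than 1 entry were taken at their highest value. Depth was recovered from the spacing of low FPKM of 2167 genes with a single exon of 800 to 4000 bases (tolerance 5%, at least 20 genes in each library), and the 3-fragment level of a subunit used 3064 (Cnga2), 2480 (Cnga4) and 3243 bases (Cngb1). PCR copies are not independent molecules. No 2 libraries held identical values. For shares of cells, 95% intervals are exact (Clopper-Pearson), and a count of 0 allows 3 cells of the total. Named genes were the subunits, listed partners and related channels, and the 8 genes (5 in Mature Neuron cells) with the highest Spearman correlation to a subunit, leaving out Olfr, Gm, Rik, ribosomal, mitochondrial and control entries. Some listed genes are not reported here. Single cells in the text were chosen with their values known. The subunits, lists and rules were chosen with earlier results of these data known. The procedure was tested on simulated data with Python 3.11.15, numpy 2.4.6, pandas 2.3.3 and scipy 1.17.1. Alternatives were other detection levels, a pseudocount of 0.1 in place of 1, no filter, rescaled FPKM, repeat libraries, and subsets of cells.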

Additional observations from a re-analysis of the deposited data

Results flagged for a closer look

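Among the 9 Precursor cells, 1 cell lay far from the others in the gap between it and the next value on the log2(FPKM + 1) scale. This was D242, with Cnga4 at an FPKM of 3.39 (gap of 0.515 of the range, critical value 0.493) and Cngb1 at 0.491 (0.559 of the range). D242 had Gap43 at 0 and Omp at 378.5, and its Cnga4 value was 0.304% of the highest in its range of cell names. Of 3 groups examined 2 were picked out, both through the same cell. Chance picks out about 1 in 20 groups where values follow a normal distribution. Here 5 of the 9 Cnga4 values and 6 of the 9 Cngb1 values were 0, so that rate does not apply.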

How the results depend on the processing

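No direction of a called difference was reversed under any setting tried, and 47 of the values recomputed outside the settings that leave out 1 cell moved beyond their interval, spread or 1.5 times. The small Late Immature to Mature Neuron differences, which were not called, turned sign after rescaling and in D316 to D434. Detection at an FPKM of 10 gave 55.6% of Early Immature Neuron cells with Cnga2, 0% of Precursor cells with Cnga2 or Cnga4, 8 cells with Cnga2 and not Cngb1 and 1 with Cngb1 and not Cnga2. Detection at any FPKM above 0 gave 96.3% of Early Immature Neuron cells with Cnga2, 77.8% with Cngb1 and 59.3% with all 3, 100% of Mature Neuron cells with Cnga2 and with all 3, 9 cells with Cnga2 and not Cngb1, 7 with Cnga4 and not Cnga2 and 0 with Cngb1 and not Cnga2. Cells of D316 to D434 alone gave 100% of 4 Mature Neuron cells with Cnga2 and with all 3, 0% of Precursor cells with Cnga2 or Cnga4, a Cnga2 difference of -0.46 from Progenitor to Precursor, 8 cells with Cnga2 and not Cngb1, 0 with Cnga4 and not Cnga2, 3 with Cnga4 and not Cngb1 and 0 with Cngb1 and not Cnga2, where fewer cells enter. The settings chosen after the data were seen leave out D215, D244 and D242, which gave 1 cell with Cngb1 and not Cnga2, or 5 cells of low depth, which gave 100% of Mature Neuron cells with all 3 and 0 cells with either modulatory subunit and not Cnga2. The cells of low depth include D213 and D215, the only exceptions, so the last 2 values were fixed by leaving them out.

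Leaving out each cell in turn moved the Early to Late Immature Neuron difference of Cnga4 between 5.50 and 5.94, that of Cnga2 between 3.81 and 4.22 and that of Cngb1 between 3.34 and 3.90. A pseudocount of 0.1 gave 7.35, 4.62 and 5.004 for the same differences, 1.11 for Cnga2 and 0.37 for Cngb1 from Progenitor to Precursor, and 11.8, 10.8 and 9.31 for Cnga2, Cnga4 and Cngb1 over the whole span. Depth limits statements on absence most in D213 and D215. No paired analysis was possible because the labels give no replicate numbers and no test was made.

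Counts over all genes moved by over 1.5 times in these cases. Without the filter, 1383 genes were higher and 1592 lower from Progenitor to Precursor (870 and 934 with it), 1653 and 1742 from Precursor to Early Immature Neuron (883 and 1122), and 1848 and 3166 from Progenitor to Mature Neuron (1127 and 2069). The lower genes from Early to Late Immature Neuron went from 665 to 1107 while the higher ones from Late Immature to Mature Neuron were 4.54% of 3835 genes with the filter and 1.07% of 31528, a larger number of genes, without it. Rescaling gave 0.929% higher and 51.6% lower of 3661 genes for the last pair (4.54% and 32.7% as deposited) and 740 higher over the whole span. D316 to D434 alone gave 1858 lower, 2117 higher (1347 over all cells), 1495 higher (beside 1640 lower) and 2452 higher for Progenitor to Precursor, Early to Late Immature Neuron, Late Immature to Mature Neuron and the whole span. Without cells that held RNA of another type, 1833 genes were lower from Progenitor to Precursor. The causes were not tested.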
